A study of Homo sapiens with 5 samples.

Results

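Dolichol is a long isoprenoid lipid of the endoplasmic reticulum (ER) membrane, on which cells build the sugar chain that is later attached to asparagine residues of secreted and membrane proteins. The genes described here are 35 listed genes of this pathway, which cover the synthesis and recycling of dolichol, the supply of mannose and glucose donors, the ALG enzymes that assemble the chain, and the subunits of oligosaccharyltransferase (OST), the enzyme that transfers it to protein. All 35 were present among the 27328 genes of the count table, and 32 had enough counts to be tested. Expression was measured in TF-1, a human acute myeloid leukemia cell line that grows in medium with GM-CSF. All cells had received a lentiviral vector with *Cas9*, GFP, and a single guide RNA, and each library came from a pool of 4 single-cell clones. The 2 control libraries were sgCtrl pools 1 and 2, whose guide targets *Renilla luciferase*, a gene absent from human cells. The 3 knockout libraries were 1 pool each of sgMTSS1_1, sgMTSS1_2, and sgMTSS1_3, so a knockout replicate was both a new set of clones and a different guide against *MTSS1*. The study left out sgCtrl pool 3 and the sgMTSS1_4 pool after an outlier test on principal components, and they were not analysed here. The spread within the groups is that of the pools kept, and may be narrower than over all pools. The effect of this choice on the p-values was not tested. The comparison asked which genes of the pathway differed in mRNA level between *MTSS1* knockout and control cells.

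In the pathway, *DHDDS* and *NUS1* encode the subunits of the enzyme that lengthens the isoprenoid chain, and DOLK phosphorylates dolichol to give the carrier. N-acetylglucosamine and mannose are added on the cytosolic side of the ER, the lipid-linked chain is turned to the lumen, and further mannose and glucose residues are added there. OST then moves the finished glycan to the nascent protein and leaves dolichyl diphosphate, from which DOLPP1 removes a phosphate so that the lipid can be used again. Blood cell receptors, adhesion molecules, and granule proteins carry such N-glycans.

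Promoter sequences are shown for the 2 members that were called, *DOLPP1* and *DDOST*, and for *DOLK*, which encodes the kinase of the same carrier lipid. They come from RefSeq (GRCh38.p14), run 5′ to 3′ in the direction of the gene, and cover 250 bases before and 50 bases after the start of the transcript. The windows are chr9:129080861-129081160 on the plus strand for *DOLPP1*, chr1:20661320-20661619 on the minus strand for *DDOST*, and chr9:128947554-128947853 on the minus strand for *DOLK*. Capitals mark matches, on either strand, to the CCAAT box (CCAAT), the CCACG site of the ER stress element (CCACG), the ACGTG core (ACGTG), the ETS core (CCGGAAG), the GC box (GGGCGG), the YY1 core (AAGATGG), and the CArG box, and neighbouring or overlapping matches run together.
DOLPP1: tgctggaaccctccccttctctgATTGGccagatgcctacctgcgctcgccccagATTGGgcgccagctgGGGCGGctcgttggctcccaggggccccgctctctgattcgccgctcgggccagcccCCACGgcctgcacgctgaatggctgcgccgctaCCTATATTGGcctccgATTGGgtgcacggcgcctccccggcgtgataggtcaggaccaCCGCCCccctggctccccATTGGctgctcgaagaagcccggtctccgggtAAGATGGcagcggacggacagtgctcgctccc
DDOST: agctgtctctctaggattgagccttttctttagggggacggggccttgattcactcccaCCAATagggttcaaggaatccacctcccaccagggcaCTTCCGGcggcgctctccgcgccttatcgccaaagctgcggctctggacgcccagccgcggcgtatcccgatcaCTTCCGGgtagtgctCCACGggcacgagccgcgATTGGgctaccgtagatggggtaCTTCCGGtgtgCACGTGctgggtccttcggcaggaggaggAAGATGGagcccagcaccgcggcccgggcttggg
DOLK: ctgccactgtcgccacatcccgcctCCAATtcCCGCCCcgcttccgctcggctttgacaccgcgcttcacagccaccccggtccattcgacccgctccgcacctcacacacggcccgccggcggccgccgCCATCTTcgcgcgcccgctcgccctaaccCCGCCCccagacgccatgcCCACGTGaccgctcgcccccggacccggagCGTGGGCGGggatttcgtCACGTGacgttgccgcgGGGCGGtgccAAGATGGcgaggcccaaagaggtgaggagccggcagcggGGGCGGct

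The *DOLPP1* window held 5 matches to CCAAT, which begin 227, 195, 85, 74, and 14 bases before the transcript start, and the match that begins at 85 lies within the only CArG match among the members (1.29% of all promoters hold one). At least 5 CCAAT matches were found in 0.403% of 27305 RefSeq promoters of this length, and among the members in *DOLPP1* alone. The *DDOST* window held 3 ETS matches, a number reached by 0.304% of all promoters, and 1 ACGTG palindrome. The *DOLK* window held 2 such palindromes, which begin 71 and 24 bases before the start. These multiple matches were counted after the sequences had been seen. Across the 32 members with a promoter in the table, CCAAT occurred in 46.9% against 35.7% of all promoters, CCACG in 65.6% against 37.9%, ACGTG in 56.2% against 21.6%, CCGGAAG in 28.1% against 10.7%, GGGCGG in 62.5% against 44.6%, the NRF1 core (GCATGCGC) in 18.8% against 3.27%, and AAGATGG in 31.2% against 6.06%. The ER stress element matched in 1 member, *ALG12*, and in 0.0806% of all promoters. The members' windows had a median GC content of 61.7% against 58.3% for all promoters, and neither this nor the choice of expressed genes was taken into account in these shares. *ALG10*, *STT3B*, and *RPN1* had no entry in the promoter table.

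Total counts were 2849979 and 3408827 in control pools against 5442639 to 8854899 in the knockout libraries, so that a level of 3 counts corresponded to between 0.389 and 0.938 CPM (counts scaled to the size of the library). Depth and condition cannot be told apart from the totals themselves. QuantSeq reads come from the 3′ end of an mRNA, so that CPM values of different genes do not need to be divided by transcript length. Ribosomal protein mRNAs took 7.55% and 9.30% of control counts and 11.9% to 17.7% of knockout counts, and mitochondrially encoded mRNAs 13.9% and 8.63% against 6.71% to 7.44%. *MTSS1* mRNA measured 204 and 87.9 CPM in the control pools and 104, 139, and 49.9 CPM in the knockout pools, and the groups overlapped (log2-fold change −0.58, SE 0.47, edgeR adjusted p = 0.494). The knockout labels could therefore not be checked on the mRNA. The study chose its knockout clones by the loss of MTSS1 protein on immunoblots, which the counts do not measure. The 10 progenitor markers fixed for TF-1, among them *CD34*, *KIT*, and *GATA2*, summed to 1001 and 828 CPM in the control and 814 to 1138 CPM in the knockout libraries. Single markers went either way. All knockout pools lay above both controls for 3, *CD34*, *KIT*, and *CSF2RB* (30%, against 22.2% of all tested genes). They lay below both for 1, *GATA1* (10%, against 19.2% of all). The lowest edgeR adjusted p of the 10 was 0.148. The lymphoid markers, *CD79A* among them, summed to 21.6 and 22.6 against 10.7 to 18.6 CPM, and the mature myeloid markers to 2.81 and 2.98 against 1.56 to 2.44 CPM. *CD3E* and *MS4A1* of the lymphoid list had no row in the count table and are not in these sums. The same holds for *FCGR3A*, *S100A8*, *S100A9*, and *ELANE* of the mature myeloid list. Stromal and epithelial markers summed to 66.3 and 137 CPM in the control and 147 to 159 CPM in the knockout libraries, nearly all from *KRT8* and *KRT18*, whereas *COL1A1*, *COL1A2*, *DCN*, *EPCAM*, and *CDH1* each stayed under 1 CPM. *COL3A1* of this list had no row.

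*DOLPP1* and *DDOST* rose in the knockout pools, whereas 30 other tested members did not pass the test and 3 were not tested. A gene was called when edgeR's quasi-likelihood test gave a Benjamini-Hochberg adjusted p under 0.05, over all 14391 tested genes, together with a log2-fold change beyond 1 in either direction. By this rule 2 of the 32 tested members were higher (6.25%, against 4.17% of all tested genes) and 0 were lower (against 1.01% of all). At an unadjusted p under 0.05 there were 7 members, all of them higher in the knockout (21.9%, against 23.3% of all tested genes in either direction). All knockout pools lay above both control pools for 9 members (28.1%, against 22.2% of all) and below both for 3 members, *NUS1*, *PMM2*, and *DPM2* (9.38%, against 19.2% of all). DESeq2 called *DOLPP1*, *DDOST*, and *OST4* higher, limma-voom *DOLPP1* and *DDOST*, and both called 0 members lower. The called share and the share at an unadjusted p under 0.05 were thus near those of all tested genes. Log2-fold changes of the tested members ranged from −0.63 to 4.28 with a median of 0.24, and the median over all tested genes was −0.03. Summed over all 35 members, the mRNAs made up 1458 and 1441 CPM in the control pools and 2099, 1690, and 1730 CPM in the knockout pools. In these bulk libraries, a change in the share of cells that express a gene and a change in mRNA per cell cannot be told apart.

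**Figure D1:**
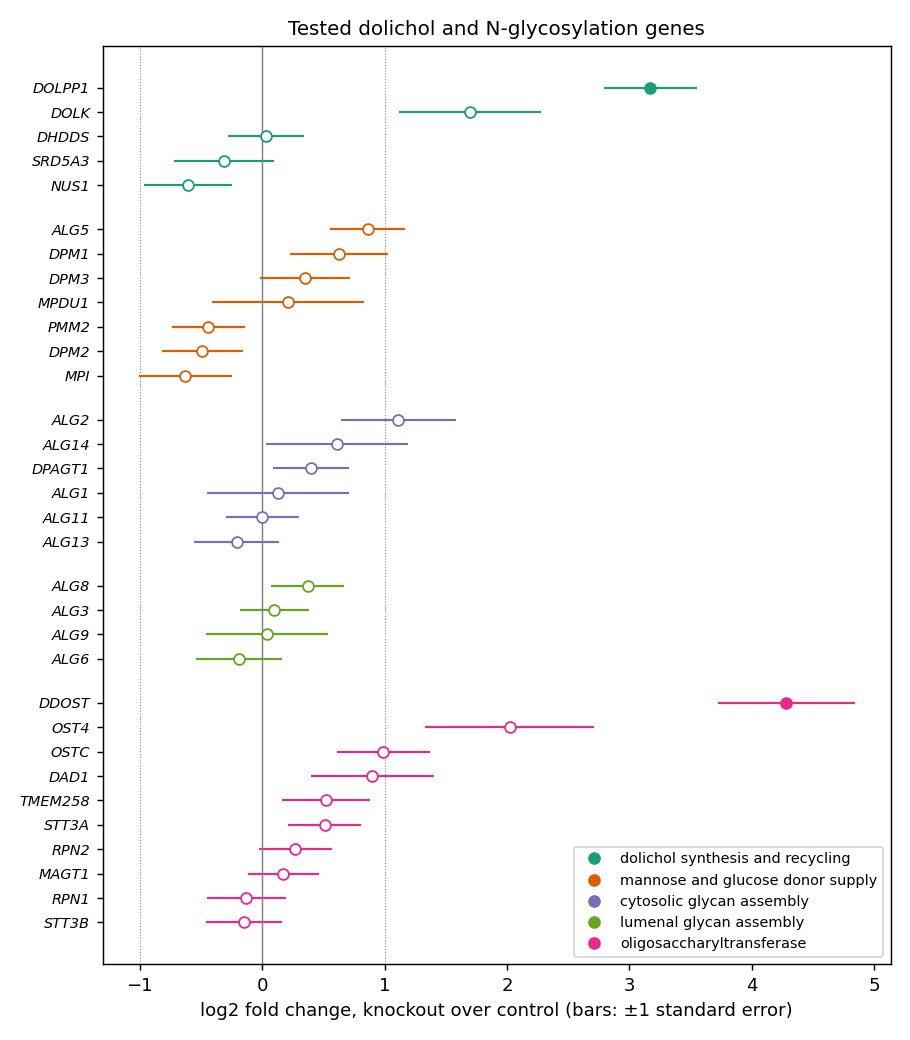
Log2-fold change, knockout over control, of the 32 tested members on the x axis, 1 row per gene, grouped by role, with bars of 1 standard error; filled points passed the test. *DDOST* at 4.28 and *DOLPP1* at 3.17 stand to the right of all other members, and dotted lines mark −1 and 1.

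Within the synthesis and recycling of dolichol, the gene of the recycling phosphatase rose and the other 4 genes did not pass the test. *DOLPP1* (ENSG00000167130, chromosome 9, 129081111 to 129090438, plus strand, 8 exons) measured 4.06 and 2.98 CPM in the control pools and 30.2, 30.3, and 35.3 CPM in the knockout pools. The 3 knockout pools, each with its own guide, had nearly the same level, far above both control pools, and the control values rest on 13 and 10 counts. The log2-fold change was 3.17 (SE 0.38, edgeR adjusted p = 0.00646), a 9.03-fold difference, and 188 of all tested genes had a log2-fold change at least as high. The gene overlaps no other annotated gene and has no pseudogene named after it. *DOLK* (ENSG00000175283, chromosome 9, 128945530 to 128947603, minus strand, a single-exon gene) measured 1.88 and 0.894 CPM in the control and 5.19, 4.51, and 3.83 CPM in the knockout pools. All knockout pools lay above both controls, but the control values rest on 6 and 3 counts, the gene passed the filter on low counts through its knockout libraries, and it was not called (log2-fold change 1.70, SE 0.58, unadjusted p = 0.0162, edgeR adjusted p = 0.12).

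The genes that make the lipid showed no call in either direction. *DHDDS* measured 25.3 and 39.0 CPM in the control and 34.2, 30.9, and 33.2 CPM in the knockout pools, a log2-fold change of 0.03 (SE 0.31). *NUS1*, its partner subunit, measured 13.8 and 25.9 CPM in the control and 13.4, 13.5, and 12 CPM in the knockout pools, and the knockout values lay just under the lower control (log2-fold change −0.61, SE 0.36, edgeR adjusted p = 0.348). *SRD5A3*, which acts late in the conversion of polyprenol to dolichol, measured 27.2 and 11 CPM in the control and 15.2, 15.9, and 15.1 CPM in the knockout pools, so that the control pools lay on either side of the knockout pools. In the control pools *DOLPP1* mRNA stood at 0.16 and 0.0763 of the *DHDDS* level, and in the knockout pools at 0.883, 0.982, and 1.06. The ratio of *DOLPP1* to *DOLK* was 2.17 and 3.33 in control pools against 5.83, 6.72, and 9.23 in the knockout pools. These ratios of CPM within a library do not depend on the scaling between libraries, and they were chosen after the values had been seen and carry no test.

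**Figure D2:**
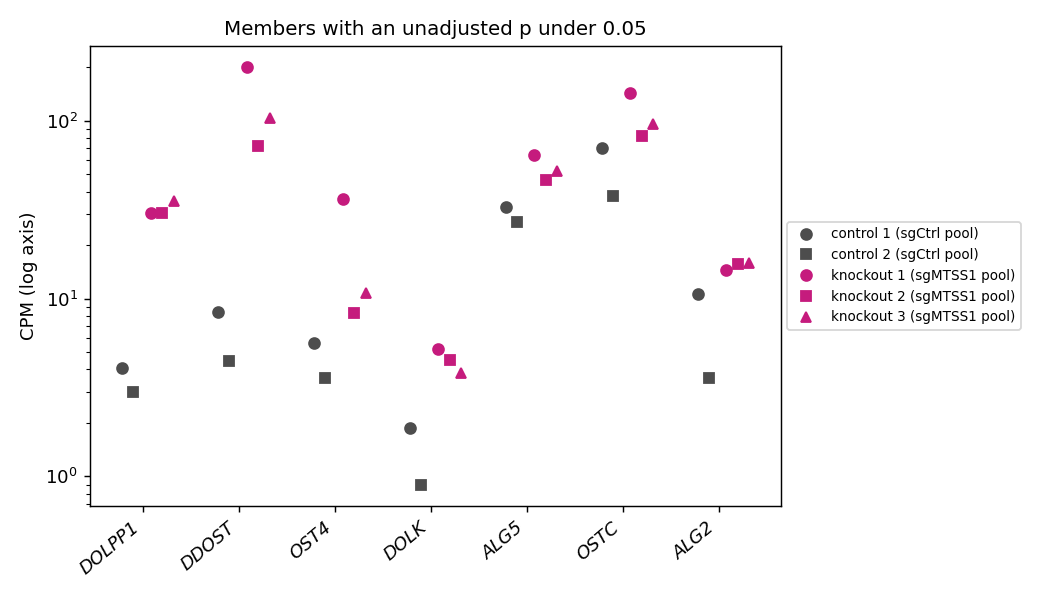
CPM on a log axis in each of the 5 pools for the 7 members with an unadjusted p under 0.05, controls in grey and knockouts in pink, 1 point per pool. In each of the 7 genes every knockout pool lies above both controls, with the widest gaps in *DOLPP1* and *DDOST*.

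Among the 7 genes that supply mannose and glucose donors, 0 were called, the median log2-fold change was 0.21, and the range was −0.63 to 0.86. *ALG5*, which makes dolichyl-phosphate-glucose, the donor for the glucose caps of the chain, measured 32.8 and 27.1 CPM in the control and 64.1, 46.4, and 52.2 CPM in the knockout pools. The groups did not overlap, and the log2-fold change of 0.86 (SE 0.31, unadjusted p = 0.0204, edgeR adjusted p = 0.136) did not pass the adjustment. *ALG5* overlaps *EXOSC8* on the opposite strand (log2-fold change 0.60, SE 0.41), and whether strand was used in counting is not given in the sources used here. *PMM2*, the phosphomannomutase that makes mannose-1-phosphate, measured 54.7 and 49.5 CPM in the control and 35.9, 47.7, and 31.5 CPM in the knockout pools (log2-fold change −0.44, SE 0.30, edgeR adjusted p = 0.422). It has 2 pseudogenes named after it, and only uniquely mapped reads were kept. *MPI*, which makes mannose-6-phosphate, had the lowest log2-fold change of the members, −0.63 (SE 0.38, edgeR adjusted p = 0.352), with 43.8 and 106 CPM in the control pools against 44.6, 48.9, and 52.0 CPM. It rested on control pool 2: without control 1 the log2-fold change was −1.12 (edgeR adjusted p = 0.0455), and without control 2 it was 0.18.

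Of the subunits of dolichyl-phosphate-mannose synthase, 0 passed the test. The catalytic subunit *DPM1* measured 22.5 and 11.9 CPM in the control and 36.1, 22.2, and 21.2 CPM in the knockout pools, and the groups overlapped. *DPM2*, a regulatory subunit, lay below both controls in all knockout pools, with 31.0 and 27.1 CPM against 26.8, 19.0, and 16.0 CPM. *DPM3*, which tethers the catalytic subunit to the membrane, overlapped with 42.8 and 22.9 CPM against 53.6, 39.0, and 32.7 CPM. Their log2-fold changes were 0.63 (SE 0.40), −0.49 (SE 0.33), and 0.35 (SE 0.37), and that of *DPM3* was −0.10 once GC and length offsets were used. *MPDU1*, which is needed to use the mannose and glucose donors, differed more between the control pools, at 10.9 and 80.5 CPM, than between the groups, and measured 62.3, 43.5, and 53.1 CPM in the knockout pools. Accordingly, its log2-fold change was 0.21 with both controls, −0.59 without control 1, and 2.30 (edgeR adjusted p = 0.0178) without control 2. *FXR2*, which overlaps *MPDU1* on the opposite strand, was called higher at 9.38 and 18.8 against 90.9, 108, and 103 CPM (log2-fold change 2.83, SE 0.38, edgeR adjusted p = 0.00884), and its part in the *MPDU1* counts was not tested.

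Of the 6 genes for assembly on the cytosolic side, 0 were called, and the median log2-fold change was 0.26. *ALG2*, a mannosyltransferase, measured 10.6 and 3.58 CPM in the control and 14.5, 15.7, and 15.8 CPM in the knockout pools. The knockout pools agreed closely and lay above both controls, and the log2-fold change was 1.11 (SE 0.47, unadjusted p = 0.0386, edgeR adjusted p = 0.187). Without control 1 it was 2.11 (edgeR adjusted p = 0.0302), and without control 2 it was 0.56. *DPAGT1*, which starts the chain and is the target of tunicamycin, measured 31.0 and 36.4 CPM in the control and 35.2, 50.2, and 47.7 CPM in the knockout pools (log2-fold change 0.40, SE 0.31). *ALG13* and *ALG14*, which together add the next sugar, had log2-fold changes of −0.21 (SE 0.35) and 0.61 (SE 0.58), the latter at 2.35 to 6.62 CPM. *ALG1* and *ALG11*, the other mannosyltransferases of this side, had log2-fold changes of 0.13 (SE 0.58) and 0.00 (SE 0.30), and *ALG11* measured 43.8 and 59.3 against 49.9, 59.8, and 44.9 CPM.

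In the lumen, 4 of the 6 assembly genes were tested and 0 were called by edgeR, with 0 at an unadjusted p under 0.05 and log2-fold changes from −0.19 to 0.37. *ALG8*, a glucosyltransferase, was the only one without overlap, at 57.2 and 86.7 CPM in the control and 93.5, 95, and 90.0 CPM in the knockout pools (log2-fold change 0.37, SE 0.30, edgeR adjusted p = 0.502). *ALG3*, the first lumenal mannosyltransferase and the most abundant ALG mRNA here, measured 108 and 89.7 against 103, 96.4, and 118 CPM. *ALG6*, which adds the first glucose, had a log2-fold change of −0.19 (SE 0.35) and *ALG9*, a further mannosyltransferase, of 0.04 (SE 0.50). *ALG12* had 4 and 1 counts in the control and 1, 5, and 2 counts in the knockout pools, and *ALG10*, the last glucosyltransferase, had 4 and 5 against 10, 5, and 7 counts. A change in either could not be assessed at this depth. *ALG10B*, a near copy of *ALG10*, had a log2-fold change of 0.14 (SE 0.58). Only uniquely mapped reads were kept, so that reads which match both genes could be lost from each.

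OST consists of a catalytic subunit, STT3A or STT3B, which sits in separate complexes with a shared set of RPN1, RPN2, DDOST, DAD1, OST4, and TMEM258. OSTC and KRTCAP2 belong to the STT3A complex, which acts at the translocon, and MAGT1 to the STT3B complex. *DDOST* (ENSG00000244038, chromosome 1, 20651767 to 20661544, minus strand, 11 exons) measured 8.44 and 4.47 CPM in the control pools and 201, 72.4, and 103 CPM in the knockout pools. The lowest knockout pool was thus many times the higher control, and the control values rest on 27 and 15 counts against 1546, 401, and 594. The log2-fold change was 4.28 (SE 0.56, edgeR adjusted p = 0.00785), a 19.4-fold difference, and 62 of all tested genes had a log2-fold change at least as high. Without the sgMTSS1_1 pool, in which the level was highest, it was 3.76 (edgeR adjusted p = 0.0323). *PINK1-AS*, which overlaps *DDOST* on the same strand, measured 1.56 and 5.96 CPM in the control and 2.59, 3.97, and 5.22 CPM in the knockout pools (log2-fold change 0.04, SE 0.63).

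The partner subunits did not follow *DDOST* to this extent. *RPN1* measured 55.0 and 56.3 CPM in the control and 65.6, 47.1, and 39.5 CPM in the knockout pools (log2-fold change −0.13, SE 0.32). *RPN2*, the most abundant subunit mRNA, measured 298 and 247 against 374, 317, and 295 CPM (log2-fold change 0.27, SE 0.30). Accordingly, *DDOST* mRNA stood at 0.153 and 0.0794 of *RPN1* in the control pools and at 3.06, 1.54, and 2.62 of it in the knockout pools. The ratio of *RPN2* to *RPN1*, in comparison, was 5.42 and 4.39 in control pools against 5.70, 6.74, and 7.47 in the knockout pools. In the control pools the *DDOST* level was thus below that of every other tested subunit mRNA but *OST4*, and in the knockout pools it lay between those of *RPN1* and *RPN2*. Protein was not measured.

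*OST4*, the smallest subunit, measured 5.63 and 3.58 CPM in the control and 36.4, 8.30, and 10.8 CPM in the knockout pools. All knockout pools lay above both controls, but the sgMTSS1_1 pool stood far above the others. The log2-fold change was 2.02 (SE 0.69, unadjusted p = 0.016, edgeR adjusted p = 0.119), and without the sgMTSS1_1 pool it was 1.04 (edgeR adjusted p = 0.301). DESeq2 gave a log2-fold change of 2.01 with an adjusted p of 0.0376, edgeR with no filter on low counts an adjusted p of 0.022, and edgeR with the replicate number as a block an adjusted p of 0.015. The sgMTSS1_3 pool shares its number with no control, so that under this block it does not enter the group difference. With GC and length offsets added to this block the log2-fold change was 1.56 (edgeR adjusted p = 0.114), so that the call was lost again. *AGBL5*, which overlaps *OST4* on the opposite strand, measured 54.7 and 149 against 69.4, 112, and 95.2 CPM. Its part in the *OST4* counts was not tested. *OSTC* measured 70.7 and 37.8 CPM in the control and 144, 82.5, and 95.3 CPM in the knockout pools, without overlap (log2-fold change 0.99, SE 0.38, unadjusted p = 0.0288, edgeR adjusted p = 0.163). It has 7 pseudogenes named after it, so that reads could be lost where copies are near identical. *DAD1* measured 65.0 and 20.9 against 118, 57.4, and 65.2 CPM, and *TMEM258* 101 and 65.6 against 159, 86.1, and 112 CPM. Their groups overlapped, the log2-fold changes were 0.90 (SE 0.50) and 0.52 (SE 0.36), and without control 1 that of *DAD1* was 1.96 (edgeR adjusted p = 0.0446).

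The catalytic subunits showed small differences. *STT3A* measured 70.0 and 51.9 CPM in the control and 80.7, 97.8, and 81.3 CPM in the knockout pools, all above both controls (log2-fold change 0.51, SE 0.30, edgeR adjusted p = 0.34). *CHEK1*, which overlaps *STT3A* on the same strand, measured 152 and 157 against 131, 124, and 112 CPM. Its part in the *STT3A* counts was not tested. *STT3B* measured 146 and 201 against 126, 164, and 179 CPM, with overlap (log2-fold change −0.15, SE 0.31). The ratio of *STT3A* to *STT3B* was 0.481 and 0.257 in control pools against 0.641, 0.595, and 0.454 in the knockout pools, so that here, too, the groups overlapped. *MAGT1*, of the STT3B complex, measured 28.8 and 33.4 against 34.2, 37.7, and 33.1 CPM (log2-fold change 0.17, SE 0.29), and *KRTCAP2*, of the STT3A complex, had 1 and 4 against 12, 6, and 6 counts and was not tested. Over the 10 tested OST genes, 1 was called higher (10%, against 4.17% of all tested genes), 4 had all knockout pools above both controls (40%, against 22.2% of all), and the median log2-fold change was 0.51. The members were chosen with earlier results of these data known, so these shares are descriptions. Summed OST mRNA was 849 and 724 CPM in the control and 1340, 972, and 1016 CPM in the knockout pools.

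**Figure D3:**
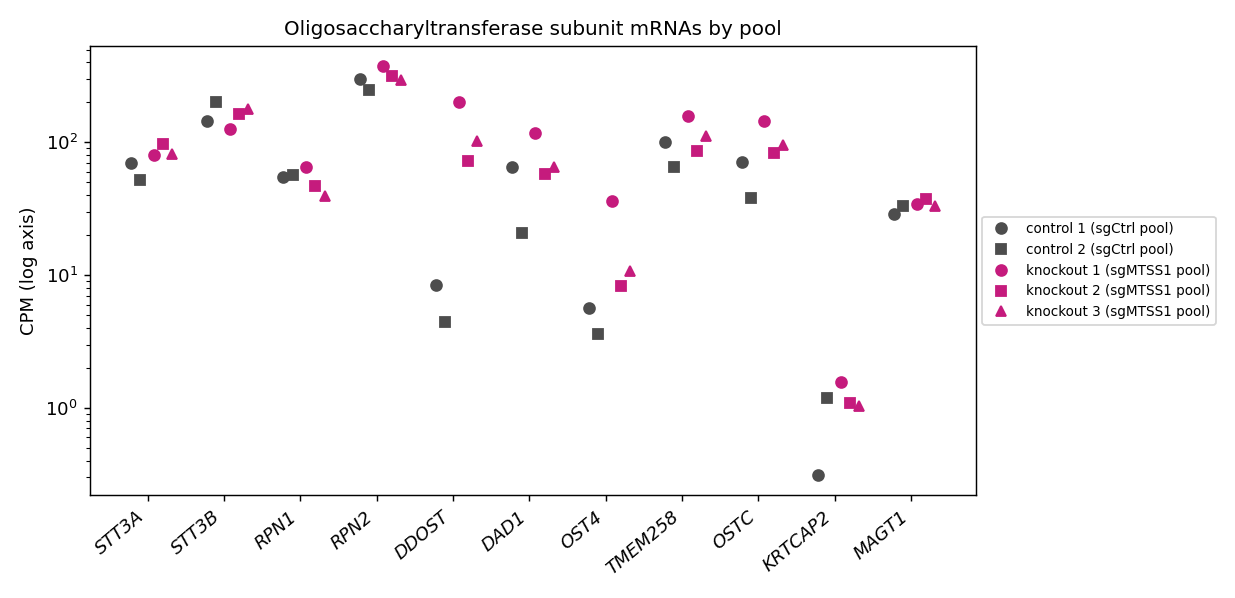
CPM on a log axis of the 11 OST subunit mRNAs in each of the 5 pools, controls in grey and knockouts in pink. In the controls *DDOST* lies near *OST4* at 4.47 and 8.44 CPM, and in the knockouts it lies between 72.4 and 201 CPM, within the range of the abundant subunits.

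Members with short transcripts tended to have higher fold changes. Across the 32 tested members, Spearman's rho of the log2-fold change with the length of the canonical transcript was −0.48, and across 14353 tested genes it was −0.13. The 9 tested members with a transcript under 1431 nt, the lower quartile of all tested genes, had a median log2-fold change of 0.63, and the other 23 had a median of 0.10. From the shortest to the longest, the 9 were *DPM3* (396 nt), *OST4* (442 nt), *TMEM258* (578 nt), *DAD1* (684 nt), *DPM2* (912 nt), *DPM1* (1054 nt), *OSTC* (1062 nt), *ALG5* (1219 nt), and *MPDU1* (1416 nt). Their log2-fold changes ran from −0.49 for *DPM2*, 0.21 for *MPDU1*, and 0.35 for *DPM3* up to 2.02 for *OST4*. In each of the 9, the sgMTSS1_1 pool had the highest level of the knockout pools. This library also had the most counts and the highest share of ribosomal protein mRNAs (17.7%). Without it, the log2-fold changes of the 9 ran from −0.74 for *DPM2* to 1.04 for *OST4*. That all 9 were lower follows from leaving out the highest knockout pool, and no conclusion is drawn from it. Over all tested genes the corresponding medians were 0.13 for 3582 short and −0.06 for 10771 longer transcripts. *DDOST* (1941 nt) and *DOLPP1* (2169 nt) were not among the short ones. GC content showed a rho of 0.09 among the members and −0.02 among all genes. With offsets for GC content and length fitted per library, the log2-fold changes were 4.16 for *DDOST* (edgeR adjusted p = 0.00917), 3.08 for *DOLPP1* (edgeR adjusted p = 0.00518), and 1.5 for *OST4* (edgeR adjusted p = 0.165). Genes share libraries and are not independent replicates, so these correlations are descriptions. The share of ribosomal protein mRNAs, which are short, was also higher in every knockout library, and its part in the values of short members was not tested.

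**Figure D4:**
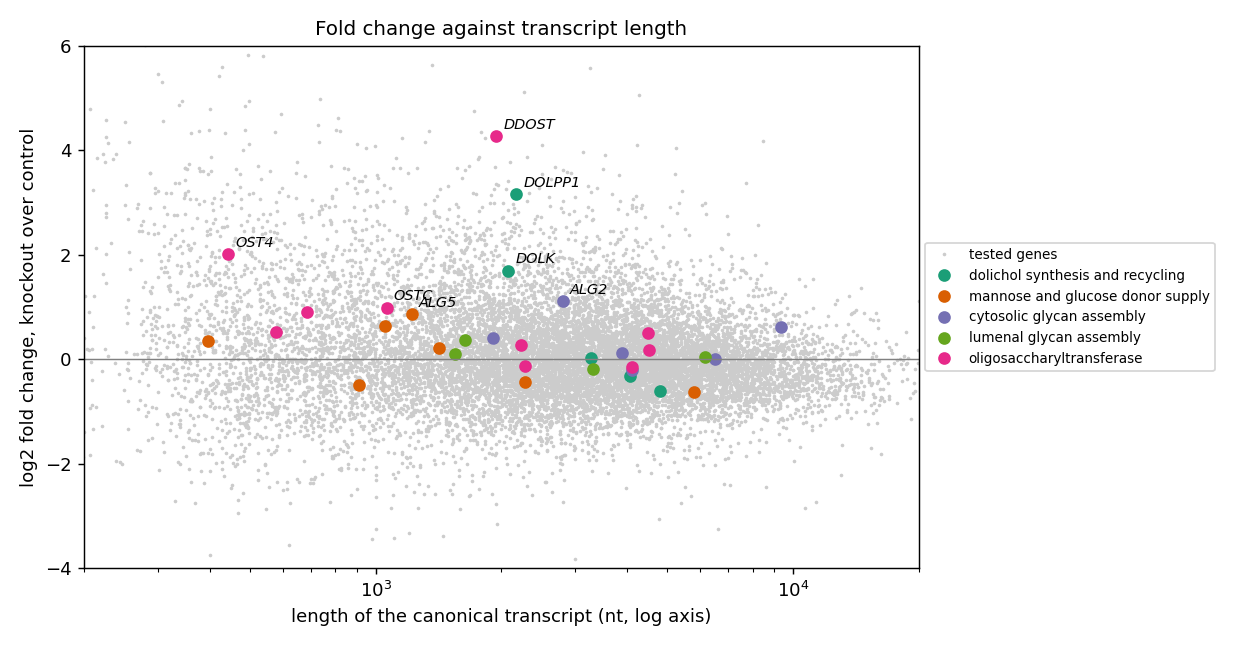
Log2-fold change, knockout over control, against the length of the canonical transcript in nt on a log axis, for the tested genes in grey and the 32 members in colour by role, without grey points that fall outside the axes. Among the members the points with short transcripts lie mostly above 0, and *DDOST* and *DOLPP1* stand high at middle lengths.

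Neighbouring steps were described by lists of genes outside the 35. The lists were chosen with earlier results of these data known, so their counts of called genes are descriptions. After transfer, glucosidases trim the glycan and the calnexin cycle tests folding. Of 14 genes 1 was called higher (7.14%, against 4.17% of all tested genes), and the list's median was 0.00. The called gene was *GANAB*, the catalytic subunit of glucosidase II (log2-fold change 1.45, SE 0.31, edgeR adjusted p = 0.0326). *PRKCSH*, which encodes the other subunit of glucosidase II, had a log2-fold change of −1.50 (SE 0.38, edgeR adjusted p = 0.0529) and was called lower by DESeq2 and by limma-voom. In the Golgi, 14 of 15 genes were tested and 1 was called higher (7.14%, against 4.17% of all tested genes), with a median of 0.49. The called gene was *B4GALT1*, a galactosyltransferase (log2-fold change 2.29, SE 0.43, edgeR adjusted p = 0.0218). At an unadjusted p under 0.05 there were 6 genes (42.9%, against 23.3% of all), of which *FUT8* was lower. All knockout pools lay above both controls in 7 genes (50%, against 22.2% of all) and below both in 1 (7.14%, against 19.2% of all). DESeq2, but not limma-voom, also called *MGAT1* and *SLC35A2* higher. *MGAT2* was not analysed here. *GANAB* and *B4GALT1* lost their calls in 5 and 3 of the alternatives.

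The translocon and signal peptidase genes, whose products meet the nascent chain beside OST, held 3 called genes of 15, all higher (20%, against 4.17% of all tested genes), and a median log2-fold change of 0.78. *SEC11A*, a catalytic subunit of signal peptidase, measured 68.2 and 42.6 CPM in the control and 704, 404, and 506 CPM in the knockout pools (log2-fold change 3.28, SE 0.42, edgeR adjusted p = 0.00705). *SEC61G* of the translocon channel and *SSR2* of the translocon-associated complex had log2-fold changes of 2.94 (SE 0.73, edgeR adjusted p = 0.0498) and 1.44 (SE 0.33, edgeR adjusted p = 0.0383), and lost their calls in 8 and 6 alternatives. In 10 of the 15 genes all knockout pools lay above both controls (66.7%, against 22.2% of all). This list, too, was chosen with earlier results of these data known, so these shares carry no test. *SEC61A1*, the channel's pore subunit, had a log2-fold change of −0.20 (SE 0.34).

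Dolichol shares its precursor with cholesterol. Of the 8 mevalonate pathway genes up to farnesyl diphosphate 0 were called (median −0.10, lowest adjusted p 0.0556 by edgeR). At an unadjusted p under 0.05 there were 2 (25%, against 23.3% of all tested genes), *HMGCS1* higher and *ACAT2* lower. *ACAT2* had a log2-fold change of −0.98 (SE 0.39, edgeR adjusted p = 0.174), with all knockout pools below both controls. *HMGCS1*, which makes HMG-CoA, measured 49.7 and 84.3 CPM in the control and 167, 197, and 141 CPM in the knockout pools (log2-fold change 1.33, SE 0.34), and was called higher by DESeq2 and by limma-voom. GPI anchor synthesis and C- and O-mannosylation draw on dolichyl-phosphate-mannose. Here 21 of 25 genes were tested, the median was −0.15, and 2 were called higher (9.52%, against 4.17% of all tested genes). These were *PIGW*, which acylates the inositol of the anchor (log2-fold change 3.62, SE 0.38, edgeR adjusted p = 0.00457), and *PIGC*, a subunit of the enzyme of its first step (log2-fold change 1.81, SE 0.36, edgeR adjusted p = 0.0255), which lost its call in 4 alternatives. Of 19 tested genes of the unfolded protein response, which is induced when N-glycosylation is blocked, 0 were called, and the median was 0.04. At an unadjusted p under 0.05 there were 6 (31.6%, against 23.3% of all tested genes). Of these *MANF*, *EIF2AK3*, *DERL1*, and *CRELD2* were higher, and *ATF6* and *HYOU1* were lower. DESeq2 called 1 of the 19 higher, *MANF*, a secreted ER protein (log2-fold change 1.45 and adjusted p = 0.113 by edgeR), and limma-voom 0. *HSPA5*, the main ER chaperone of this response, measured 123 and 132 CPM in the control and 129, 129, and 130 CPM in the knockout pools (log2-fold change 0.02, SE 0.27).

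**Figure D5:**
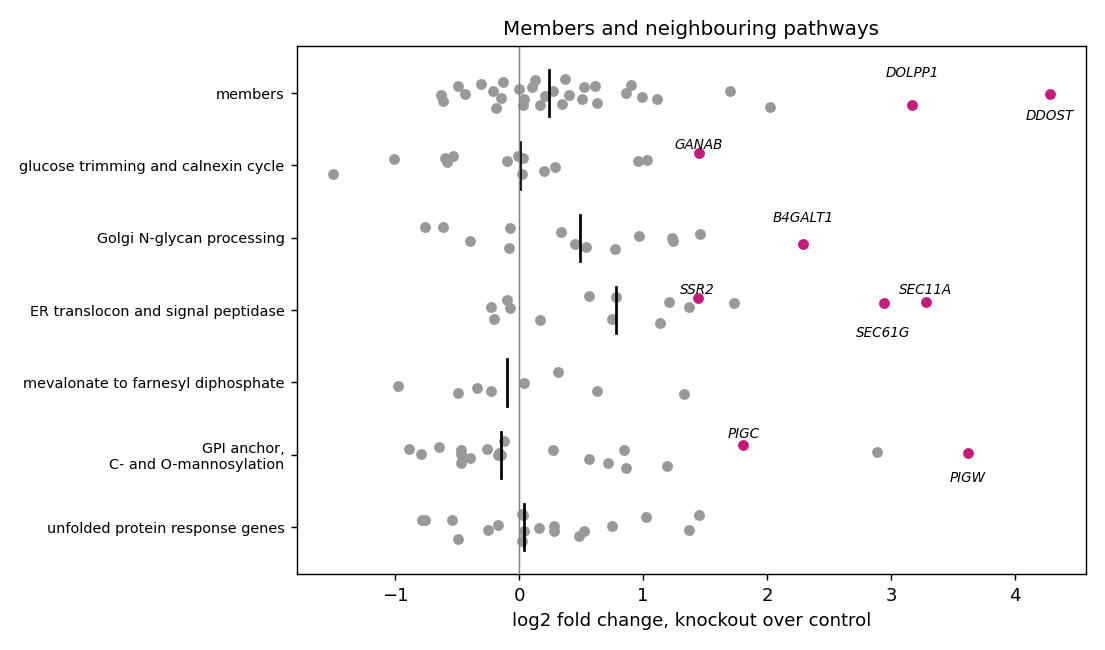
Log2-fold change, knockout over control, of each tested gene in the 35-gene set and in 6 lists of neighbouring pathways, 1 point per gene, with pink points for genes that passed the test and black lines for medians. Medians lie between −0.15 and 0.78, and the called genes, which are named, lie at 1.44 or higher, where some genes that did not pass lie too.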

How the data were processed

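RNA-seq counts of 5 TF-1 libraries, 2 control and 3 *MTSS1* knockout pools, were analysed. Libraries were prepared with the QuantSeq 3′ kit. Per the study's methods, the authors removed adapters, mapped reads with HISAT2 2.1.0 to GRCh38, and discarded non-unique alignments with SAMtools 1.10. The deposited values are whole, unnormalized counts for Ensembl genes. The counting program, annotation release, strand setting, and handling of PCR duplicates are not given in the sources used here.

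Groups came from the sample labels. Genes with low counts were removed by filterByExpr (minimum count 10), which left 14391 of 27328 genes. Counts were normalized with TMM and tested with edgeR 4.0.16 (glmQLFit, glmQLFTest; R 4.3.3), with the condition as the only term, over all 5 libraries, with Benjamini-Hochberg adjustment over the whole table of tested genes. CPM values used the TMM factors. The standard error of a log2-fold change was computed from its F statistic. Since pools are sets of clones, p-values measure the spread between the pools kept after the study's outlier test. No test was made over the member list. The members and all lists were chosen with earlier results of these data known. All members were named, those with an unadjusted p under 0.05 with each library's value. In other lists, called genes were named. Other genes were named after their values were seen: overlapping genes, *ALG10B*, *PRKCSH*, *FUT8*, *MGAT1*, *SLC35A2*, *HMGCS1*, *ACAT2*, *SEC61A1*, *HSPA5*, *MANF* and further unfolded protein response genes, and single markers. The same holds for members that missed this limit and are given per pool. Not every overlap of a member with another gene is listed. Gene positions and lengths came from GENCODE 44, which named 27211 of the genes, and promoters from RefSeq. A list of further pathway genes is not reported here. The test was also run on simulated counts with known changes. Alternatives were RLE, upper-quartile, and no factors, 2 other filters, DESeq2 1.42.0, limma-voom 3.58.1, thinned libraries, a replicate block, GC and length offsets (mgcv 1.9.3), other thresholds, and each library left out. Counting floors cover counting error only. Python 3.11.15, pandas 2.3.3, and matplotlib 3.10.9 served for tables and plots.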

Additional observations from a re-analysis of the deposited data

How the results depend on the processing

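*DOLPP1* and *DDOST* were called higher under every alternative run, with log2-fold changes of 3.0 to 3.42 and 3.76 to 4.82 and adjusted p-values of at most 0.0335 and 0.0323. Over the single-gene values and their alternatives, 648 kept direction and side of the threshold, 26 lost a call, 7 gained one, and 35 changed sign. The cause of these changes was not tested. The other thresholds reused the main fit, so that there no sign could change and no called gene could lose its call. Over all genes, the number called higher was 1173 with no filter, 1010 with DESeq2, and 1090 at an adjusted p under 0.1, and the number called lower was 232 with library size alone, 333 with DESeq2, 262 with GC and length offsets, 90 with these and the block, and 441 at an adjusted p under 0.1. Leaving out 1 library gave 107 to 917 higher and 4 to 432 lower genes, 2 to 4 members called higher, and 0 to 1 called lower; the lowest counts were without the sgMTSS1_1 pool and the highest without control 1. A lone control was assumed to vary like the knockout pools. The members' median log2-fold change was 0.16 with upper-quartile factors, 0.12 with library size alone, 0.39 with no filter, 0.30 with at least 10 counts in every library, 0.32 with limma-voom, 0.33 with the replicate block, and 0.16 to 0.36 with 1 library left out; the median of all tested genes was −0.11 with upper-quartile factors, −0.17 with library size alone, and 0.11 with no filter. With the replicate block, 894 genes were called higher and 200 lower, and 3 members were higher, *OST4* included. In this fit the sgMTSS1_3 pool does not enter the group difference, which rests on pools 1 and 2 of each group. Pools 1 and 2 exist in both groups. Across genes, the difference between control pools 1 and 2 had a correlation of 0.17 with that between knockout pools 1 and 2. Nothing says that equal numbers were handled together.

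Sign changes concerned uncalled values. With library size alone *DHDDS* was −0.09, *ALG1* −0.01, *ALG3* −0.05, and *ALG9* −0.08; with upper-quartile factors *DHDDS* was −0.05 and *ALG9* −0.04; with thinned libraries *DHDDS* was −0.07. With GC and length offsets *ALG3* was −0.02, *DPM3* −0.10, *DHDDS* 0.00, and *ALG11* 0.24, and with the replicate block added *ALG3* was −0.06 and *ALG11* 0.35. *ALG11* was 0.06 with at least 10 counts, 0.00 with limma-voom, 0.15 with no filter, and 0.10 with the replicate block, and *RPN1* was 0.02 with no filter. Leaving out 1 library gave ranges that crossed 0, which are set by the control left out except for *RPN1*: *DHDDS* −0.24 to 0.40, *ALG9* −0.24 to 0.44, *ALG11* −0.19 to 0.26, *MPDU1* −0.59 to 2.30, *MPI* −1.12 to 0.18, and *STT3B* −0.35 to 0.13, each lowest without control 1 and highest without control 2; *SRD5A3* −0.79 to 0.49, *ALG6* −0.46 to 0.19, *ALG1* −0.28 to 0.76, *ALG3* 0.00 to 0.25, *DPM3* −0.01 to 0.88, and *MTSS1* −1.04 to 0.16, each lowest without control 2 and highest without control 1; and *RPN1* −0.37 without the sgMTSS1_1 to 0.06 without the sgMTSS1_3 pool.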
